A study of Mus musculus with 6 samples.

Results

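The tubulin isotypes of the mouse retina were followed after injury of the optic nerve. The members were 10 genes taken by symbol from 35485 in each table, with 4 alpha-tubulins (Tuba1a, Tuba1b, Tuba1c and Tuba4a) and 6 beta-tubulins (Tubb2a, Tubb2b, Tubb3, Tubb4a, Tubb5 and Tubb6). RNA came from whole retinas of wild type C57BL/6 mice aged 12 weeks, 2 days after surgery. In the optic nerve crush (ONC) group, forceps closed on the nerve for 10 seconds at 2 mm behind the eye, and in the sham group the nerve was laid bare and left intact. Each of the 3 ONC and 3 sham samples was a pool of RNA from 6 retinas of 6 mice, so a sample averages over animals and the p-values measure the spread between pools. No ganglion cells were sorted, and neither group carried a transgene. ONC injures the axons of retinal ganglion cells while their cell bodies remain in the tissue that was sequenced.

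Microtubules are built from dimers of one alpha- and one beta-tubulin, and isotypes of a family often differ in the acidic tail at the end of the protein. Axons are rich in microtubules, which carry transport between the cell body and the synapse, and retinal ganglion cells have the longest axons of the retina. Tubb3 is widely used to mark neurons and, in the retina, ganglion cells, whereas Tuba1b and Tubb5 are made in most cell types.

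The first coding bases of the isotypes are shown because they hold the signal by which cells adjust tubulin mRNA to the amount of free tubulin. The ribosome-bound start of the protein, Met-Arg-Glu-Cys in alpha- and Met-Arg-Glu-Ile in beta-tubulin, is bound by TTC5, and the mRNA is then degraded. In the GENCODE M1 transcripts, matched by gene name, 16 of 21823 genes with a coding sequence (0.0733%) began with either start, and all 16 were alpha- or beta-tubulin genes, the 10 members among them. Capitals mark codons 2 to 4, and each line begins with the ATG.
Tuba1a: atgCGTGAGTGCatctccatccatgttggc
Tuba4a: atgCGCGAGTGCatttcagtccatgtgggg
Tubb3: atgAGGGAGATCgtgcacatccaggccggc
Tubb5: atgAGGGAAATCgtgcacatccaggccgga
The called and uncalled isotypes described below did not differ in this start, since the codons of all 10 members spelled the same amino acids within a family.

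The last 60 coding bases of 6 isotypes are shown because isotypes of a family often differ there. Capitals mark the last codon before the stop codon.
Tuba4a: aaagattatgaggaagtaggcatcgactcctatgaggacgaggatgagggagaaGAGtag
Tubb2a: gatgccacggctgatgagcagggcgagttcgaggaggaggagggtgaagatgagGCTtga
Tubb2b: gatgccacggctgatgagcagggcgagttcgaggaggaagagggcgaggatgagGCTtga
Tubb3: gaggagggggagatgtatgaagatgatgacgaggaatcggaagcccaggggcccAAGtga
Tubb4a: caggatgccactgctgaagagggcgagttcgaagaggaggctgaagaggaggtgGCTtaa
Tubb5: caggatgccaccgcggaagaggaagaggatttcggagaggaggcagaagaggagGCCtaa
Tuba4a, the only alpha-tubulin among these 6, ends in a glutamate codon. Tubb3 ends in a lysine codon, whereas Tubb2a, Tubb2b, Tubb4a and Tubb5 end in an alanine codon. The ends shown for Tubb2a and Tubb2b differ in bases but spell the same amino acids. The 2 residues that differ between Tubb2a and Tubb2b lie elsewhere in the protein. Among the last 18 residues, 9 were acidic in Tubb3, 10 in Tubb2a, Tubb2b and Tubb4a, and 11 in Tuba4a and Tubb5.

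Near-identical isotypes limit how far reads can be assigned. The coding sequences of Tuba1a and Tuba1b differed at 23 of 1356 bases (98.3% identical), and those of Tubb2a and Tubb2b at 47 of 1338 bases (96.5% identical). Of all windows of 100 bases, the read length, 42.3% of Tuba1a, 52.3% of Tuba1b and 53.6% of Tuba1c occurred without a mismatch in another of these 3 transcripts, and 36.6% of Tubb2a and 29.8% of Tubb2b in the other of that pair. No such window was found in Tuba4a, Tubb3, Tubb4a or Tubb5, although a read pair spans more than 1 window and the mapping allowed mismatches. In the tables, reads assigned to 1 place only made up 59.9% to 61.7% of the exon reads of Tuba1a and 39.7% to 41.6% of those of Tuba1b. The same share was 73.7% to 76.6% for Tubb2a, 75.8% to 80.7% for Tubb2b and 87.1% to 92.6% for Tuba4a, and it was at least 99.6% for Tubb3, Tubb4a, Tubb5 and Tubb6. For Tuba4a it was higher in every ONC pool (90.0% to 92.6%) than in every sham pool (87.1% to 89.6%). For Tuba1a it was lower in every ONC pool (59.9% to 60.4% against 60.6% to 61.7%). The source of the reads of Tuba4a that were not unique was not tested. The division of reads between Tuba1a, Tuba1b and Tuba1c, and between Tubb2a and Tubb2b, is therefore uncertain. The test of each isotype, the family sums and the shares were repeated with the unique reads alone, and the ratios between isotypes and between families were not.

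The isotypes covered a wide range of levels. Levels are given in RPKM, the exon reads per kilobase of exon and per-million reads mapped to genes, so that genes of different length can be compared. Tuba1a (383 ± 7.24, SD, n = 3) and Tuba1b (365 ± 18.2) were highest in sham retinas, with overlapping samples. Tubb5 (111 ± 7.33) and Tubb2a (101 ± 5.21), which also overlapped, came next. Below them, with no overlap between neighbours, stood Tubb4a at 60.7 ± 2.06, Tubb3 at 50.8 ± 3.93, Tuba4a at 36.9 ± 2.23, Tubb2b at 6.55 ± 0.423, Tubb6 at 1.77 ± 0.207 and Tuba1c at 0.503 ± 0.144 RPKM. Tuba1a ranked at place 57 and Tuba1c at place 12651 among the 13670 genes fitted. After ONC the order of the means was the same, and only Tuba1a and Tuba1b still overlapped. The gap between Tubb3 and Tuba4a narrowed from a ratio of 1.38 to 1.14, with 29.95 to 34.96 RPKM for Tubb3 and 28.4 to 29.9 for Tuba4a in ONC retinas.

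**Figure D1:**
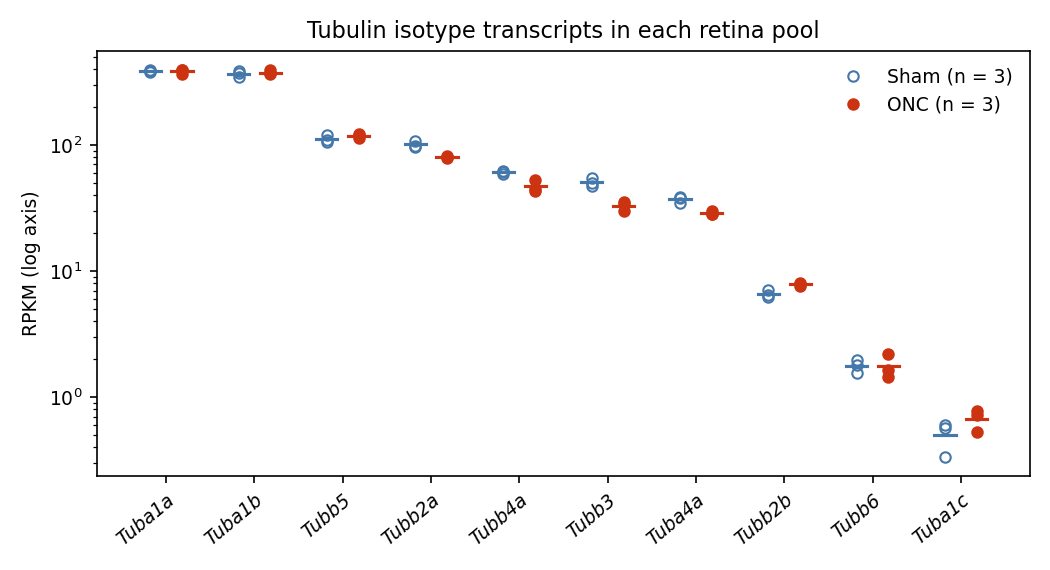
RPKM of the 10 isotypes in each pool on a log axis, ordered by the sham mean, with open circles for the 3 sham and filled circles for the 3 ONC pools and a bar at each mean. The ONC circles of Tubb2a, Tubb4a, Tubb3 and Tuba4a lie below all sham circles, and those of Tubb2b (7.63 to 8.03 RPKM against 6.19 to 7.02) lie above them.

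ONC was compared with sham to see which isotypes changed 2 days after axonal injury. Of the 10 isotypes, 4 fell (Tubb3, Tubb4a, Tuba4a and Tubb2a) and 0 rose. The other 6, which include Tuba1a, Tuba1b and Tubb5, did not pass the test. The fall was largest in Tubb3, to 0.595 of the sham level, and lay between 0.710 and 0.730 in the other 3. Exon reads were scaled by the trimmed mean of M-values (TMM) and compared by edgeR's quasi-likelihood test, with genes called at a false discovery rate (Benjamini-Hochberg adjusted p) under 0.1 over 13670 genes. In all fitted genes 3.72% were called lower and 2.38% higher. Tubb3 alone also passed a fold change of 1.5, as did 1.66% of all genes in either direction. All 10 isotypes passed the filter on low values, a mean above 0.3 RPKM in at least one group. The median log2 fold change was -0.14 over the 10 isotypes and 0.01 over all genes, which describes them without a test.

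Among the beta-tubulins, Tubb3 is the isotype most typical of neurons. In TMM-scaled CPM (counts-per-million of the scaled library), the pools held 107, 125 and 124 in sham and 65.9, 73.2 and 72.7 in ONC. The highest ONC pool was far below the lowest sham pool. Its log2 fold change was -0.75 (SE 0.07, adjusted p = 2.35e-06, edgeR's quasi-likelihood test), with a 95% interval from -0.91 to -0.59. The reads were 1871, 2270 and 2110 in sham and 1306, 1499 and 1512 in ONC, nearly all of them unique. In the order of all fitted genes by RPKM, Tubb3 moved from place 891 to place 1708.

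Tubb4a, an isotype of mature neurons and of myelinating glia, had 180, 183 and 188 TMM-scaled CPM in sham and 151, 120.1 and 121 in ONC. The groups did not overlap, but ONC pool 1 stood apart from the other 2, and the coefficient of variation was 13.4% in ONC against 2.16% in sham. The log2 fold change was -0.49 (SE 0.08, adjusted p = 0.000436, edgeR's quasi-likelihood test). Without ONC pool 1 it was -0.61, past a fold change of 1.5, so that 2 isotypes passed both thresholds.

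Tubb2a, a major beta-tubulin of neurons, had 205, 226 and 228 TMM-scaled CPM in sham and 168, 156 and 157 in ONC. All ONC pools were lower than all sham pools. The log2 fold change was -0.45 (SE 0.06, adjusted p = 9.76e-05, edgeR's quasi-likelihood test), and with unique reads alone it was -0.47 (adjusted p = 4.56e-05, edgeR). Its close relative Tubb2b had 17.8, 15.7 and 17.8 TMM-scaled CPM in sham and 18.7, 18.7 and 19.0 in ONC. The ONC pools of Tubb2b lay above the sham pools, by less than the sham pools differed among themselves. Its log2 fold change of 0.14 (SE 0.12, adjusted p = 0.603, edgeR) did not pass the test.

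Tubb5, a beta-tubulin of most cell types, had 380.3, 414 and 398 TMM-scaled CPM in sham and 414, 381 and 372 in ONC. The groups overlapped, and the log2 fold change was -0.03 (SE 0.06, 95% interval -0.15 to 0.09, adjusted p = 0.829, edgeR's quasi-likelihood test). The sign of this value was positive, at 0.09, when the reads were scaled as in RPKM. Tubb6, a beta-tubulin found mainly outside neurons, had only 65 to 95 exon reads per pool. Its groups overlapped, and its 95% interval of -0.69 to 0.41 left room for changes in either direction.

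Of the alpha-tubulins, Tuba4a was called. The pools had 102, 105 and 102 TMM-scaled CPM in sham and 74.5, 71.0 and 76.7 in ONC. The sham pools lay close together and far above the ONC pools. The log2 fold change was -0.47 (SE 0.07, adjusted p = 0.000122, edgeR's quasi-likelihood test), and -0.42 with unique reads alone (adjusted p = 0.000472, edgeR).

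Tuba1a, a major alpha-tubulin of neurons, had 808, 813 and 859 TMM-scaled CPM in sham and 789, 752 and 727 in ONC. All ONC pools were below all sham pools by a small margin. The log2 fold change of -0.13 (SE 0.05, adjusted p = 0.228, edgeR's quasi-likelihood test) did not pass the threshold. Without ONC pool 1 it was -0.16 and passed (adjusted p = 0.0188, edgeR), whereas with the reads scaled as in RPKM it was -0.0064 (adjusted p = 0.96, edgeR), over alternatives that ranged from -0.16 to -0.0064.

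Tuba1b, found in most cell types, had 756, 787 and 779 TMM-scaled CPM in sham and 736, 742 and 706 in ONC. The groups did not overlap, yet the log2 fold change of -0.09 (SE 0.05, adjusted p = 0.416, edgeR's quasi-likelihood test) was not past the threshold, and it was 0.03 when scaled as in RPKM. Tuba1c, a close relative of Tuba1a and Tuba1b, had 16 to 40 exon reads per pool, of which 10 to 22 were unique. Its 95% interval of -0.59 to 1.20 held both a fall and a rise, and no change was detectable at this depth.

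In TMM-scaled CPM, 6 isotypes had all ONC pools below all sham pools (the 4 called, Tuba1a and Tuba1b) and 1 had them above (Tubb2b), where 10.8% and 11% of all fitted genes did so. In RPKM, 4 isotypes (those called) had all ONC pools below and Tubb2b had them above, while Tuba1a and Tuba1b overlapped. The share of all fitted genes without overlap was not counted in RPKM, so these RPKM counts have no background beside them. With unique reads alone the same 4 isotypes were called lower and 0 higher, where 3.94% of genes were called lower and 2.3% higher. The scaling matters for the small values. The divisor of RPKM also counts reads on introns, and exons took 70.9% to 76.6% of the gene reads in sham and 78.5% to 80.4% in ONC, so that scaling as in RPKM moved the median log2 fold change of all genes from 0.01 to 0.13. The 4 calls held under both scalings.

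**Figure D2:**
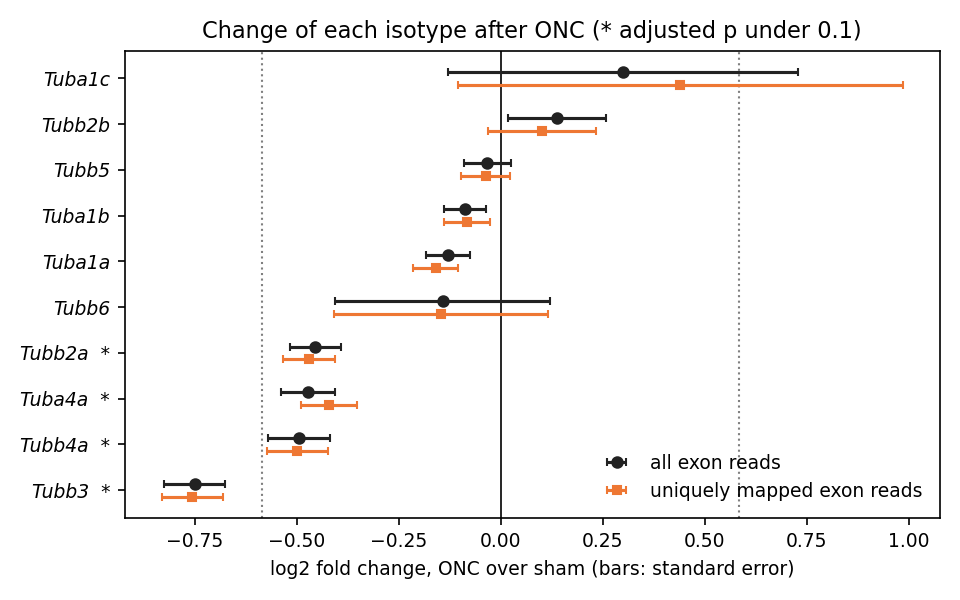
Log2 fold change of each isotype, ONC over sham, with bars of 1 standard error, from all exon reads (circles) and from uniquely mapped exon reads (squares). Dotted lines mark a fold change of 1.5, and asterisks mark the 4 isotypes called lower, of which Tubb3 at -0.75 lies beyond the line.

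Intron reads, taken as gene reads minus exon reads, were a separate readout of the same genes. The isotypes had few, from 0 to 63 per pool. Tubb3 had 40, 59 and 26 in sham and 20, 39 and 37 in ONC, and these overlapped. Of 8 isotypes with enough intron reads to be fitted, 0 were called and 0 had an unadjusted p under 0.05 (edgeR's quasi-likelihood test). Of all 13821 genes fitted by intron reads, 2.75% were called and 2395 genes had an unadjusted p under 0.05. With only 8 isotypes, counts of 0 do not set them apart from all genes. The largest fitted difference was in Tubb4a, whose intron reads were 9, 5 and 19 in sham and 35, 14 and 24 in ONC (unadjusted p = 0.0778, edgeR). For Tubb3 the intron log2 fold change was -0.38 (unadjusted p = 0.382, edgeR), and read numbers this low leave wide limits.

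The summed level of each family was compared next. The 4 alpha-tubulins summed to 791, 809 and 755 RPKM in sham and 786, 809 and 759 in ONC, a ratio of 0.999 (two-sided exact permutation test, p = 0.9). The 6 beta-tubulins summed to 323, 351 and 319.7 RPKM in sham and 296, 288 and 277 in ONC, a ratio of 0.867 with no overlap (exact p = 0.1). With 3 pools against 3, 0.1 is the smallest p that the exact test can give. After rescaling by TMM the ratios were 0.918 for the alpha and 0.797 for the beta sum, both without overlap.

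The ratio of the alpha to the beta sum does not depend on the scaling between pools. It was 2.45, 2.31 and 2.36 in sham and 2.65, 2.81 and 2.74 in ONC, higher in all ONC pools (exact permutation p = 0.1). Together the 10 isotypes took 0.256% to 0.265% of all exon reads in sham and 0.230% to 0.237% in ONC.

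Within the beta members, which leave out Tubb4b, the isotypes took different shares after ONC. Tubb5 made up 33.8%, 33.9% and 32.7% of the summed beta RPKM in sham and 41.4%, 41.1% and 40.6% in ONC. Tubb3 made up 14.6%, 15.7% and 15.7% in sham and 10.1%, 12.1% and 12.2% in ONC. The share of Tubb5 was thus higher and that of Tubb3 lower in every ONC pool. Tubb2a went from a mean of 30.4% to 27.8% and Tubb2b from 1.98% to 2.74%, each without overlap, while the shares of Tubb4a (18.4% and 16.3%) overlapped through ONC pool 1.

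Within the alpha family, Tuba4a made up 4.70% ± 0.124 of the sum in sham and 3.69% ± 0.223 in ONC (SD, n = 3), with no overlap. The shares of Tuba1a (48.8% and 48.6%) and Tuba1b (46.5% and 47.6%) overlapped. In all, 5 of 10 shares did not overlap, each with an exact permutation p of 0.1 and 0.2 after Benjamini-Hochberg adjustment over 10 shares. A share falls or rises with the other members of its family, so these 10 values are not independent.

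**Figure D3:**
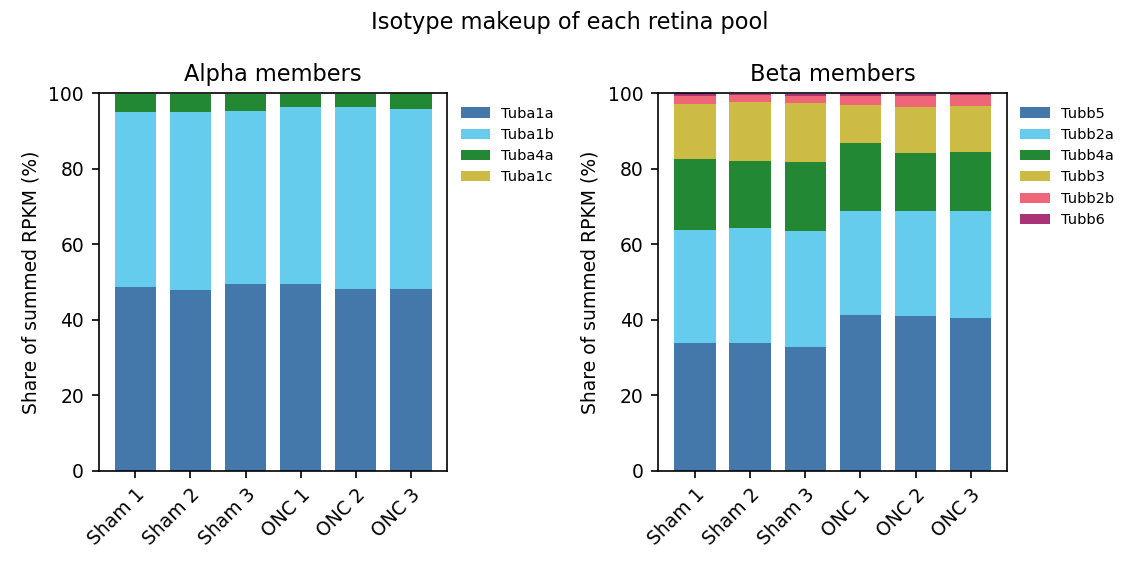
Share of each isotype in the summed RPKM of the alpha members (left) and of the beta members, without Tubb4b (right). Stacked bars show the 3 sham and 3 ONC pools. The Tubb5 block is taller in every ONC pool (40.6% to 41.4%) than in every sham pool (32.7% to 33.9%), and Tuba1c, at about 0.1% or less, is too thin to be seen.

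The log2 ratio of Tubb3 to other isotypes was taken in each pool, a comparison chosen after the values were seen. Tubb3 already had the largest fall in these pools, so the direction of the ratios was set by that choice. Their p-values do not allow for it. The ratio of Tubb3 to Tubb5 was lower in ONC than in sham by 0.72 on the log2 scale, and that to Tuba1a by 0.62, both without overlap. Against the other called isotypes, it was lower by 0.28 for Tuba4a and by 0.29 for Tubb2a, again without overlap. Each had an exact permutation p of 0.1 and 0.117 after Benjamini-Hochberg adjustment over the 7 ratios. The ratio of Tubb3 to Tubb4a overlapped between the groups (exact permutation p = 0.3).

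Other genes of tubulin biology were read against all fitted genes, of which 2.38% were called higher and 3.72% lower. In lists as short as these, counts of 0 or 1 are near that share. Of 10 other tubulin genes, 6 could be fitted and 0 were called. Tubb4b, a beta-tubulin of most tissues and of cilia, had 68.5 RPKM in sham and 65.8 in ONC, with a log2 fold change of -0.17 (adjusted p = 0.213, edgeR's quasi-likelihood test). Tubg2, a gamma-tubulin, had -0.17 (adjusted p = 0.413, edgeR). Tuba3a, Tuba3b, Tubal3 and Tubb1 had 0 to 8 reads per pool.

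The chaperones that fold tubulin (the CCT ring, prefoldin and the tubulin cofactors) had 20 of 21 genes fitted and 0 called, with a median log2 fold change of 0.06. The smallest p belonged to Cct4 (log2 fold change 0.16, adjusted p = 0.231, edgeR) and Cct7 (0.12, adjusted p = 0.351), subunits of the CCT ring. By intron reads, Cct4 was called higher (log2 fold change 0.68, adjusted p = 0.0831, edgeR). Cct6a has 2 entries in the tables and was left out. Of the 3 genes of tubulin mRNA autoregulation 0 were called. Scaper, which links TTC5 to the mRNA decay machinery, had -0.11 (adjusted p = 0.538, edgeR) and Cnot11, listed as D1Bwg0212e, had -0.11 (adjusted p = 0.565).

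Of 25 genes that modify tubulin, 19 were fitted, with 1 lower and 0 higher. The one called was Ttll7, which adds glutamate chains to the tail of beta-tubulin and fell by 0.34 on the log2 scale (SE 0.06, adjusted p = 0.00335, edgeR's quasi-likelihood test), from 15.3 to 13.2 RPKM. Ttll11, of the same enzyme family, had 0.21 (adjusted p = 0.427, edgeR). The 8 genes of microtubule nucleation were all fitted, with 0 called. Of these Mzt2, part of the gamma-tubulin ring complex, had the smallest p (log2 fold change 0.29, adjusted p = 0.326, edgeR), followed by Tubgcp3 of the same complex (0.12, adjusted p = 0.495). Over the 5 lists 1 gene was called, and without ONC pool 1 it was 5, when the count over all genes was 2049 against 833 with all pools.

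Of 10 markers of ganglion cells 8 were called lower and 1 higher, where 3.72% and 2.38% of all fitted genes were. The remaining marker was not called. The RPKM of the 10 markers summed to 453 to 471 in sham and 340 to 357 in ONC. They ranged from Pou4f2, a transcription factor of ganglion cells (log2 fold change -1.39, adjusted p = 0.000103, edgeR's quasi-likelihood test), to Slc17a6, a glutamate transporter (0.26, adjusted p = 0.0525). Fewer ganglion cells and less RNA per cell cannot be told apart in whole retina. The part of the ganglion cell markers in the fall of the isotypes was not tested.

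Some markers of other cell types were called as well. The summed RPKM of microglia markers was 9.49 to 12.0 in sham and 17.4 to 19.6 in ONC, with C1qa of the complement system called higher. That of 4 lens genes overlapped, at 5.13 to 29.0 in sham and 28.8 to 36.4 in ONC. The crystallin Cryaa was called higher, although its pools also overlapped in TMM-scaled CPM. The rod genes Sag and Pde6b were called higher, and the horizontal cell gene Calb1 lower. The part of these cells in the values of the isotypes was not tested, and no marker was 0 in all pools. The 5 markers of dividing cells had at most 23 reads in any pool.

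**Figure D4:**
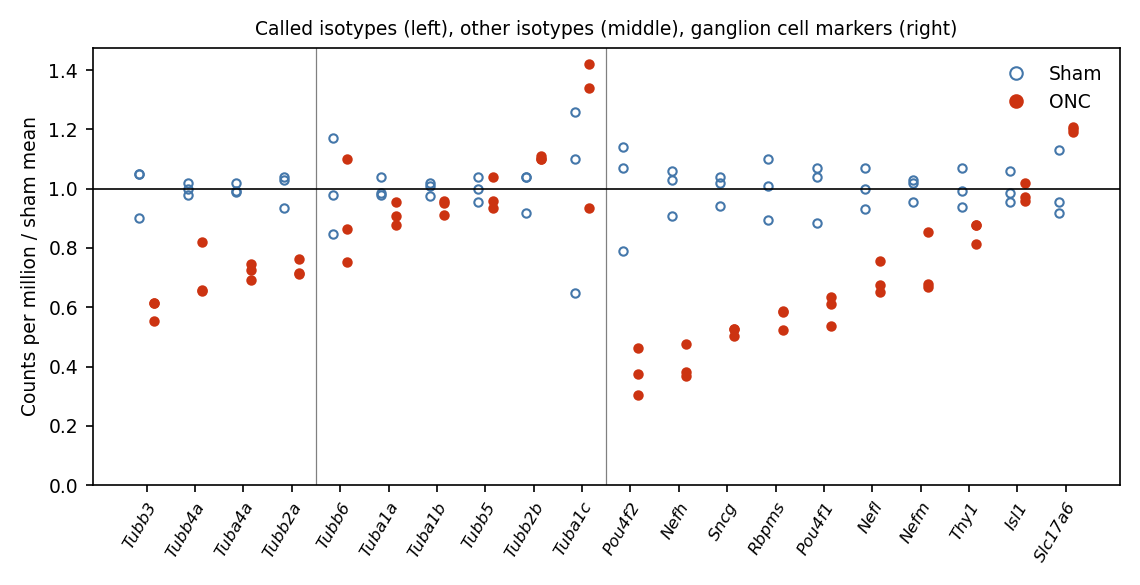
TMM-scaled CPM of each pool divided by the sham mean, for the 4 called isotypes (left), the other 6 (middle) and 10 ganglion cell markers (right), with open circles for sham and filled circles for ONC. The ONC circles lie at 0.555 to 0.616 for Tubb3 and 0.304 to 0.463 for Pou4f2, while those of Tubb5 lie at 0.935 to 1.04.

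The genes whose values over the 6 pools were most like those of Tubb3 are given as a description. Among 5821 genes with a mean of at least 10 RPKM in one group, the highest Pearson r of log2 TMM-scaled CPM belonged to Rbpms (0.996), a marker of ganglion cells, followed by Hras1 (0.993), Stmn3 (0.993), Emb (0.993) and 1190002N15Rik (0.992). The pools share the contrast between ONC and sham, which the correlation includes. Their falls were of different size, from 0.82 on the log2 scale in Rbpms (adjusted p = 6.23e-05, edgeR) and 0.71 in Emb (adjusted p = 7.18e-05) to 0.24 in Stmn3 (adjusted p = 0.0269), a stathmin that binds tubulin dimers. Hras1, with a log2 fold change of -0.23 (adjusted p = 0.176, edgeR), did not pass the test.

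Near relatives lie close together in the genome. By the positions in the tables, Tuba1a lies at chr15:98949847-98953501, Tuba1b at chr15:98931429-98934390 and Tuba1c at chr15:99029891-99038105, while Tubb2a lies at chr13:34074278-34078008 and Tubb2b at chr13:34127008-34130354. Tubb3 lies at chr8:123411564-123422010 and Tuba4a at chr1:75214974-75219253. Tubb4a (chr17:57080066-57087782) and Tubb5 (chr17:35833920-35838301) are on one chromosome but far apart. The values given are reads over all exons of each gene, 4 exons and 1 transcript in the tables for each isotype. The labels name mm9. The start and end of Tuba1a, Tuba1b, Tuba1c, Tubb2a, Tubb2b and Tubb5 equal those of the RefSeq annotation of GRCm38. They do not equal those of NCBIM37 (mm9) in GENCODE M1. That annotation is not RefSeq, so this mismatch alone does not tell the builds apart. The positions of Tubb3, Tubb4a and Tuba4a differ from GRCm38 by up to 11, 182 and 2008 bases, and do not equal those of GENCODE M1 either. The positions given for the isotypes that match are thus those of GRCm38, against the labels, whereas the build used for the mapping is not settled.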

How the data were processed

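RNA from pools of 6 mouse retinas (3 ONC, 3 sham) was sequenced by the authors. Mapping by the authors used CLC Genomics Workbench 6.0.1 and allowed mismatches. They deposited for each sample the read counts per gene on exons and on the whole gene, as total and as unique reads, without normalization. The authors also deposited RPKM values. Exon reads per sample ranged from 17343945 to 20358008, so genes with few reads are known within wide limits only.

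Genes with a mean above 0.3 RPKM in at least one group were kept (13670). Counts were compared with edgeR 4.0.16 in R 4.3.3 (TMM, glmQLFit and glmQLFTest, Benjamini-Hochberg adjustment over all kept genes), and the standard error was the log2 fold change divided by the square root of F. Intron reads needed a mean of 10 in one group. Alternatives used DESeq2 1.42.0 size factors and Wald test, limma 3.58.1 on log2(RPKM + 0.1) and log2(RPKM + 1), scaling as in RPKM, other filters, unique reads, a block, and leaving out each sample. Single values were compared by two-sided exact permutation tests with Python 3.11.15 and scipy 1.17.1.

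The members, the lists and the tests were chosen with earlier results of these data known. All 10 members are named. From each list of related genes, those past both thresholds are named or, if there were none, the 2 with the smallest p. Tuba3a, Tuba3b, Tubal3 and Tubb1 are named only for their few reads, and Cct6a as left out. Genes of ganglion cells are named by the lowest and highest change, other markers only where called. The genes like Tubb3 were the 5 with the highest Pearson r among genes at 10 RPKM or more. Sequences are from GENCODE M1. Protein sequences were not used here, and the ends of some isotypes are not reported here.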

Additional observations from a re-analysis of the deposited data

How the results depend on the processing

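Tubb3, Tubb4a, Tuba4a and Tubb2a were called lower in each of the 15 alternatives run, 0 isotypes were called higher in any of them, and Tubb3 exceeded a fold change of 1.5 in each. The number of isotypes past both thresholds was 1 to 2 when 1 sample was left out, with 2 only without ONC replicate 1, where Tuba1a was also called and 5 isotypes were lower. With the scaling of RPKM and with limma on log2(RPKM + 0.1) and log2(RPKM + 1), the log2 fold change of Tuba1b was 0.03409, 0.03452 and 0.03443 and that of Tubb5 was 0.08855, 0.0897 and 0.08899, in place of negative values. None of these passed the threshold. For Tuba1a the same 3 gave -0.006443, -0.006837 and -0.00682, in place of -0.1291. Over the 5 lists of related genes, 5 genes were called with the scaling of RPKM, 2 with limma on log2(RPKM + 1), and 1 to 5 when 1 sample was left out. Over all genes, 1730 were called with the scaling of RPKM (350 of them past both thresholds) in place of 833 (227). Leaving out 1 sample gave 373 to 2049 called genes, with 373 without Sham replicate 2, 397 without Sham replicate 3, 2049 without ONC replicate 1, 435 without ONC replicate 2 and 454 without ONC replicate 3, and 154 to 358 past both thresholds. The cause was not tested. The ratio of the alpha sum was 0.9178 after rescaling by TMM and 0.9804 to 1.015 when 1 sample was left out. That of the beta sum was 0.7969 after rescaling by TMM. Samples that share a replicate number did not deviate together from their group means, with correlations of -0.0474, -0.0333 and 0.0026. Such correlations cannot show whether pools were handled in pairs, and the labels say nothing of pairing. With the replicate block, 728 genes were called, 222 past both thresholds, among them 4 isotypes lower and 0 higher, with 1 past both thresholds. Depth limits what can be said of Tuba1c, of Tubb6 and of all intron reads.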

Other observations

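Few of the exon reads of Tubb6 crossed a junction between exons. Of its exon reads, 0% to 11.6% per pool did so, with 3 to 11 such reads in 3 pools and 0 in the other 3. The share was 16.9% to 19.5% for Tubb4a, 20.7% to 26.4% for Tubb3 and 23.3% to 26.1% for Tubb5. For Tuba1c, the other isotype with few reads, it was 0% to 57.5% and overlapped that of Tubb6. Tubb6 also had 43 to 63 intron reads per pool beside 65 to 95 exon reads, where Tubb3 had 20 to 59 intron reads beside 1306 to 2270 exon reads. The level given for Tubb6 rests on these few reads, and the cause of their position was not tested.

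The coefficient of variation within a group, in TMM-scaled CPM, was 1.62% to 8.46% for Tuba1a, Tuba1b, Tuba4a, Tubb2a, Tubb3 and Tubb5. It was 2.16% in sham and 13.4% in ONC for Tubb4a, 7.18% and 0.66% for Tubb2b, and 16.4% to 31.6% for Tubb6 and Tuba1c, the isotypes with the fewest reads.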
